A study of Mus musculus with 2 samples.

Results

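The genes of glycolysis, the pentose phosphate pathway and the response to low oxygen were examined in CD4 T cells grown under CD103+ Th1 or Th1 conditions. The 35 genes were fixed by name, but with earlier results of these data known. They were transporters and enzymes of glucose breakdown, 5 enzymes of the pentose phosphate pathway and 6 genes of the hypoxia response. Of these, 31 were measured, out of 11194 measured genes on the arrays. Ero1l was found under its current symbol Ero1a. Gpi1, Eno1 and G6pdx had no probe set under their own symbol in the annotation used here and were not analysed. Gapdh was named there on 3 probe sets that are also assigned to other genes, so it received no value.

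CD4 T cells from spleens of wild type C57BL/6 mice were purified magnetically to above 98% and stimulated through the T cell receptor and CD28 for 2 days, then cultured for 3 more days. The CD103+ Th1 culture was given 3 ng/ml IL-4, 10 ng/ml IFN-γ and 3 ng/ml TGF-β. The Th1 culture was given 1 ng/ml IL-12 together with 1 µg/ml of the IL-4 blocking antibody 11B11. The integrin αE chain, CD103, gives the first culture its name. Each culture was measured on 1 Affymetrix array, and the number of mice that gave the cells is not in the labels. The cultures differed in all of these agents at once, so the effects of single cytokines cannot be told apart. With 1 array in each group no test was possible, and every fold change below compares 2 arrays without a replicate check.

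Glycolysis turns glucose into pyruvate, and lactate dehydrogenase turns pyruvate into lactate, which leaves the cell through monocarboxylate transporters. T cells raise this flux strongly when they are activated, and effector T helper cells depend on it. The pentose phosphate pathway branches off after the hexokinase step and yields NADPH and ribose for nucleotides. Many of the enzymes are targets of HIF, a transcription factor whose α subunit is marked for destruction by oxygen-dependent prolyl hydroxylases.

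A value is the signal of a probe set, a group of short probes for 1 or more transcripts, in arbitrary linear units. The floor for a measured signal was the median over both arrays, 78.5, and each gene was represented by its brightest probe set. For 16 of the 31 measured members the name of that probe set carries a suffix letter, which marks probes that can match more than 1 transcript. The arrays were closely scaled, with median signals of 78 in CD103+ Th1, against 78.8 in Th1. T cell genes were strong on both. Cd3d had a signal of 18038 in CD103+ Th1, against 17966 in Th1, and Cd4 had 1081 in CD103+ Th1, against 973 in Th1. The 13 measured genes of the T cell list summed to 124550 in CD103+ Th1, against 108441 in Th1. These sums include Ptprc, a gene of all leukocytes, with 21074 in CD103+ Th1, against 18243 in Th1. Among markers of other cells, 8 of 12 myeloid genes and 5 of 9 named B cell genes lay under the floor on both arrays, including Ms4a1 and Pax5. Of the 4 measured myeloid markers, Cd68 and Csf1r were lower in CD103+ Th1, the direction of the members. Cd68 had 104 in CD103+ Th1, against 233 in Th1, and Csf1r had 118 in CD103+ Th1, against 187 in Th1. A second Csf1r probe set was near even, at -0.06 on the log2 scale of CD103+ Th1 over Th1. Fcgr1 and Adgre1 were under the floor in CD103+ Th1 and barely above it in Th1, with 79.4 and 79.1 there. Their ratios are bounds close to even. The 12 myeloid genes, most of them under the floor, summed to 508 in CD103+ Th1, against 808 in Th1. Some markers of other lymphocytes were well above the floor and higher in CD103+ Th1. Cd8a had 2054 in CD103+ Th1, against 466 in Th1, Cd8b1 had 1593 in CD103+ Th1, against 697 in Th1, and Ighm had 7712 in CD103+ Th1, against 2443 in Th1. Markers of CD8 T, γδ T or NK cells were named for 5 genes, and Ncr1, Klra8 and Sox13 were not above the floor on either array. The summed signal of the 5 was 3733 in CD103+ Th1, against 1236 in Th1. That of the 9 B cell markers was 8278 in CD103+ Th1, against 2928 in Th1, and Ighm alone made up most of it. Cd79b was also higher, with 244 in CD103+ Th1, against 75.8 in Th1, which is under the floor, at least 3.11-fold. Of the 4 measured B cell markers 1, Blk, was lower in CD103+ Th1. The 4 Ighm probe sets ran from -0.53 to 1.84 on the log2 scale of CD103+ Th1 over Th1, and the 5 of Cd8a from 0.24 to 2.16. The part of such cells in the differences below was not tested.

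On their brightest probe sets the 31 measured genes had a lower signal in CD103+ Th1 than in Th1, mostly by small amounts, but not under every setting. Aldoa, Pdk1 and Bnip3 turned slightly above 0 when the arrays were quantile normalized, and Aldoc, Pdk1, Pfkl or Pgd turned above 0 under other rules for the probe set, Aldoc to as much as 0.57 on the log2 scale. These left 28 of 31 genes below 0 with quantile normalization, and 29 of 31 or 21 of 23 with the probe set rules. Their median log2 ratio of CD103+ Th1 over Th1 was -0.26, a 1.2-fold lower signal, and single genes ran from -1.15 for Slc16a1 to -0.02 for Pgd. Over all measured genes the median was -0.03, and 52.6% of them lay below 0. A difference of at least 1.5-fold was found for 7 members, all lower: Slc16a1, Hk2, Ero1a, Slc2a3, Ldhb, Egln3 and Hif1a. That is 22.6% of the measured members, against 13.4% of all measured genes that were lower by at least 1.5-fold. Since the members were chosen with earlier results of these data known, such comparisons with all genes are descriptions and not independent of the values. At least 2-fold lower was 1 member, Slc16a1, or 3.23%, near the 4.87% among all measured genes. No member was 1.5-fold or 2-fold higher, where 12.4% and 5.04% of all measured genes were. Among the 5934 genes with a mean signal of at least 8 times the floor, 51.7% lay below 0, 11.1% and 3.32% were at least 1.5-fold and 2-fold lower, and 11.8% and 4.47% were at least 1.5-fold and 2-fold higher. Another 9 members were lower by 1.2-fold to 1.5-fold, and 15 by less than 1.2-fold. On these bulk samples fewer cells expressing a gene and less RNA per cell cannot be told apart.

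**Figure D1:**
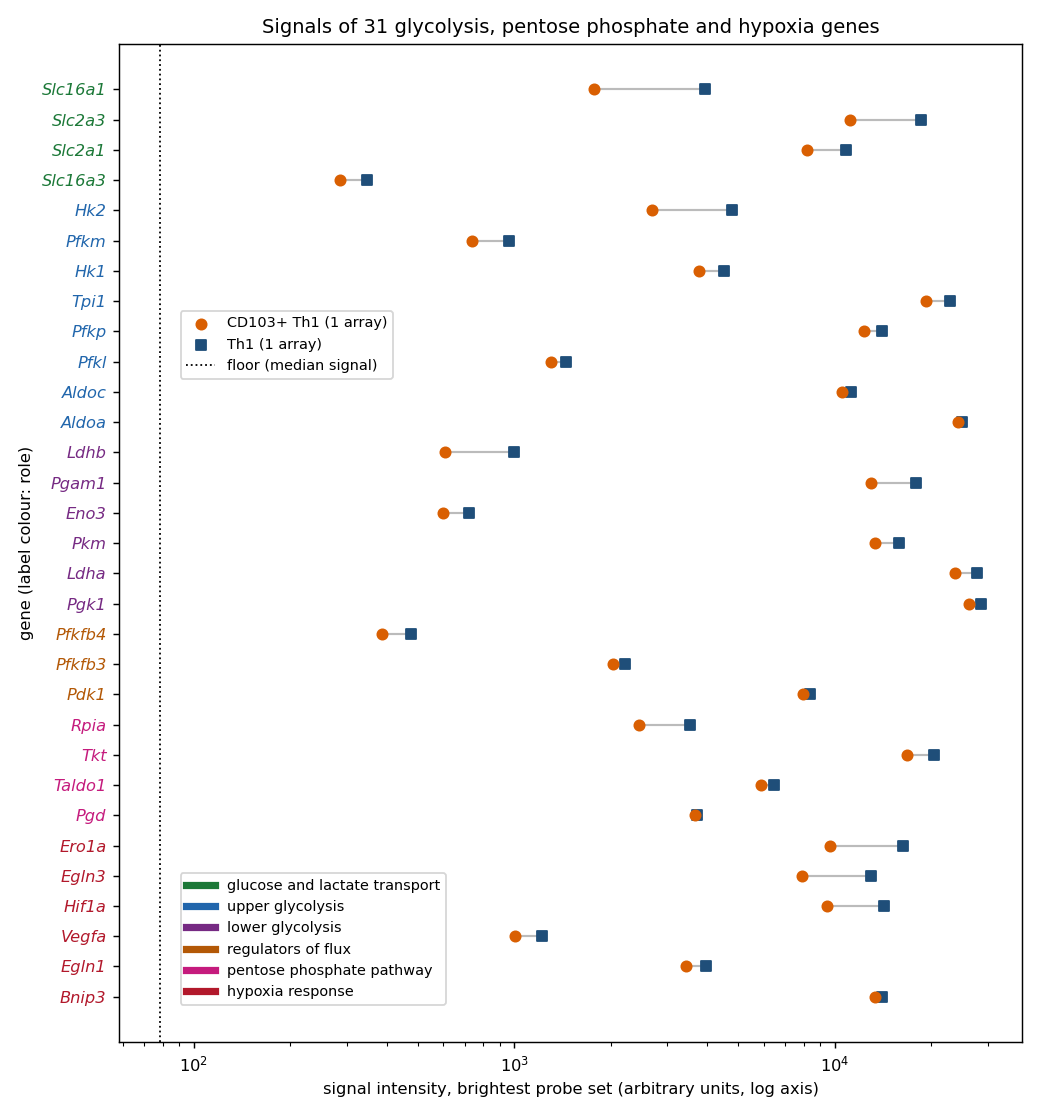
Signal of the brightest probe set of each of the 31 measured genes (log axis, arbitrary units) on the CD103+ Th1 array (circles) and the Th1 array (squares), 1 array each, grouped by role. Every circle lies left of its square, with the widest gap for Slc16a1 (1771 in CD103+ Th1, 3931 in Th1) and almost none for Pgd and Aldoa; after quantile normalization Aldoa, Pdk1 and Bnip3 lie slightly the other way, as do Aldoc, Pdk1, Pfkl or Pgd under other probe set rules.

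The promoters of the genes were read for the letters that HIF binds, since many of these genes are textbook HIF targets. Windows of 250 bases before to 50 bases after the start were taken from RefSeq on GRCm38.p6, and 30 of the 31 measured genes matched by symbol. The core was searched as ACGTG or GCGTG on both strands. The E-box CACGTG, a site bound by MYC and related factors, contains ACGTG on each strand and therefore counts as both a core and an E-box. At least 1 core lay in a window of 29 of the 30 genes (96.7%), the exception being Tpi1, against 67.5% of the 9128 measured genes with a window. By window, a core lay in 81.4% of the members' 43 windows. The share was 61.8% of 11649 windows over all measured genes and 43.8% of all 32851 windows in the table. ACGTG alone was found in 51.2% of the members' windows, 26.0% of those of all measured genes and 19.6% of all windows, and CACGTG in 14.0%, 9.90% and 7.15% of these. The median GC content was 61.0% in the members' windows, 60.7% over all measured genes and 52.7% in the whole table. The members were chosen as genes of glycolysis and hypoxia, many of them known HIF targets. A higher share of cores among them could be foreseen from that choice and is no result about these arrays.

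Nearly every member with a window held a core, namely 6 of 6 genes at least 1.5-fold lower and 23 of the 24 others, so this count could not tell the 2 sets apart. ACGTG lay in a window of 5 of the 6 genes and 14 of the 24 others, and CACGTG in 2 of the 6 and 4 of the 24. These counts are too small to compare and are given as a description. The windows of Slc16a1, Hk2 and Ero1a are shown because these were the genes with the lowest ratios that had a window. Those of Ldha and Pgk1 are shown for comparison, as genes with cores whose signals differed little. Each is written 5′ to 3′ with the cores in capitals, touching or overlapping cores forming 1 run.
Slc16a1, chr3:104638414-104638713, plus strand: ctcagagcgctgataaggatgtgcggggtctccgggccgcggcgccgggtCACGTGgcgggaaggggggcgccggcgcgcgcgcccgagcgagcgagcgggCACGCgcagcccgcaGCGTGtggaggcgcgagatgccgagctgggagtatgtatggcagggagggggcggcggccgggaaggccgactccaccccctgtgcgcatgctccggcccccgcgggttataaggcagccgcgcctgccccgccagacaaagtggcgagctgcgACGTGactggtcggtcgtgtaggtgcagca
Hk2, chr6:82774405-82774704, minus strand: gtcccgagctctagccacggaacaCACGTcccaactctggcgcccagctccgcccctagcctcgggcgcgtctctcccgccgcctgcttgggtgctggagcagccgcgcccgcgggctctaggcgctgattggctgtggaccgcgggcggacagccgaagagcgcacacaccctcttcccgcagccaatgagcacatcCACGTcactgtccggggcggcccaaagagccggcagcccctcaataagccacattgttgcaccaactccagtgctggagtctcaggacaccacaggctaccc
Ero1a, chr14:45318523-45318822, minus strand: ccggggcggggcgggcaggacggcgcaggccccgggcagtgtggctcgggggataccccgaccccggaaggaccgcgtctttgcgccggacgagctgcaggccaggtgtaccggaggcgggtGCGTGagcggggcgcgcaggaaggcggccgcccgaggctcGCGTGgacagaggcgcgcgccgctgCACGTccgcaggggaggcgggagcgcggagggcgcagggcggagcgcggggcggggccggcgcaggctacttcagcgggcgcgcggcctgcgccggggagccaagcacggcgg
Ldha, chr7:46845554-46845853, plus strand: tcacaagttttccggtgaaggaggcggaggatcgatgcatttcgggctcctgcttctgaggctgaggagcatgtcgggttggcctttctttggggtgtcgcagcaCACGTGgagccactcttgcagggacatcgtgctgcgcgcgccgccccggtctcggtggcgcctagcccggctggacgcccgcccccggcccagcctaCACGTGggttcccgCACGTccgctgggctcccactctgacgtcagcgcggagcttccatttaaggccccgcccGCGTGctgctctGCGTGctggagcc
Pgk1, chrX:106186850-106187149, plus strand: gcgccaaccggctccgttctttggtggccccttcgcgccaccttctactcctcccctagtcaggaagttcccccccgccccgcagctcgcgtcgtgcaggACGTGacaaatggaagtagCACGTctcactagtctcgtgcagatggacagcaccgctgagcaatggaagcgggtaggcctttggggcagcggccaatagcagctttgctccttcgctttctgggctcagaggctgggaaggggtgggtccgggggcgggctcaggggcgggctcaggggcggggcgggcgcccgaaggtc
Slc16a1 and Ldha hold the E-box CACGTG, at 1 place in the Slc16a1 window and 2 places in the Ldha window, which is 1 of 2 windows listed for Ldha. Hk2, Ero1a and Pgk1 hold cores but no E-box in these windows. A match of letters is a description of the window and shows neither binding nor a cause.

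Transport of glucose and lactate showed the lowest median of the roles, -0.57 over 4 genes. Slc16a1, which encodes the monocarboxylate transporter MCT1 for lactate and pyruvate, had a signal of 1771 in CD103+ Th1, against 3931 in Th1, 2.22-fold lower. Slc2a3, for the high-affinity glucose transporter GLUT3, had 11141 in CD103+ Th1, against 18621 in Th1, 1.67-fold lower. The other measured Slc2a3 probe sets gave larger differences: one had 6149 in CD103+ Th1, against 13447 in Th1, 2.19-fold lower, and a dim one had 79.1, just above the floor, in CD103+ Th1, against 477 in Th1. All 3 Slc2a3 probe sets thus pointed the same way, with the size open to the probe set taken, from -2.59 to -0.74 on the log2 scale.

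The paralogs of these transporters were closer to even. Slc2a1, for the widely expressed glucose transporter GLUT1, had 8215 in CD103+ Th1, against 10831 in Th1, 1.32-fold lower, and its 3 probe sets lay between -0.53 and -0.38 on the log2 scale, above the whole range of the Slc2a3 probe sets. Slc16a3, for the lactate exporter MCT4, was dim, with 285 in CD103+ Th1, against 347 in Th1, 1.22-fold lower. Whether the paralogs of a pair differ from each other could not be tested with 1 array per culture. The list of glycolysis genes outside the members held Bsg, which encodes basigin, the chaperone that brings MCT1 and MCT4 to the cell surface. Bsg had 6693 in CD103+ Th1, against 10231 in Th1, 1.53-fold lower.

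In the upper part of glycolysis, from glucose to triose phosphates, 8 genes were measured with a median log2 ratio of -0.22, and Hk2 stood lowest. Hexokinase traps glucose in the cell as glucose 6-phosphate, and Hk2 encodes the inducible form bound to mitochondria. Hk2 had 2688 in CD103+ Th1, against 4776 in Th1, 1.78-fold lower on its only measured probe set. Hk1, for the constitutive form, had 3771 in CD103+ Th1, against 4501 in Th1, 1.19-fold lower, with a second, dimmer probe set 1.41-fold lower.

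The 3 phosphofructokinase genes encode subunits of the committing step. Pfkm, the muscle-type subunit, had 738 in CD103+ Th1, against 959 in Th1, 1.30-fold lower. Pfkp, the platelet-type subunit, had 12346 in CD103+ Th1, against 14090 in Th1, 1.14-fold lower, and Pfkl, the liver-type subunit, had 1298 in CD103+ Th1, against 1452 in Th1, 1.12-fold lower. Pfkp and Pfkl each had 3 probe sets, of which 1 was higher in CD103+ Th1, at log2 ratios of 0.12 and 0.27, so their direction depended on the probe set.

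The aldolase genes, whose enzymes split fructose 1,6-bisphosphate, were close to even. Aldoa had 24303 in CD103+ Th1, against 25044 in Th1, 1.03-fold lower, and its 5 probe sets all lay between -0.20 and -0.04 on the log2 scale. Aldoc had 10554 in CD103+ Th1, against 11238 in Th1 on its brightest probe set, 1.06-fold lower, but its other probe set was 1.48-fold higher, with 1033 in CD103+ Th1, against 698 in Th1. Tpi1, for triose phosphate isomerase, had 19269 in CD103+ Th1, against 22851 in Th1, 1.19-fold lower, and its other 2 probe sets were 1.25-fold and 1.27-fold lower.

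In the lower part of glycolysis, from triose phosphates to lactate, 6 genes were measured with a median of -0.25. Ldhb, which encodes the lactate dehydrogenase subunit that favours the conversion of lactate to pyruvate, had 606 in CD103+ Th1, against 999 in Th1, 1.65-fold lower. Its 4 probe sets were all lower, between -0.92 and -0.72 on the log2 scale. Ldha, for the subunit that favours lactate formation, had 23697 in CD103+ Th1, against 27883 in Th1, 1.18-fold lower on its only probe set. Pgam1, for phosphoglycerate mutase, had 12950.1 in CD103+ Th1, against 17953 in Th1, 1.39-fold lower.

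The remaining genes of this stretch differed by about 1.2-fold or less. Pgk1, for phosphoglycerate kinase, had 26331 in CD103+ Th1, against 28701 in Th1, 1.09-fold lower, and its other 2 probe sets were 1.15-fold and 1.39-fold lower. Pkm, for pyruvate kinase of the muscle type, had 13384 in CD103+ Th1, against 15821 in Th1, 1.18-fold lower. Eno3, for the muscle-type enolase, had 601 in CD103+ Th1, against 721 in Th1, 1.2-fold lower.

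Genes that set the flux at branch points were near even. Pfkfb3 and Pfkfb4 encode enzymes that make and remove fructose 2,6-bisphosphate, an activator of phosphofructokinase. Pfkfb3 had 2038 in CD103+ Th1, against 2210.4 in Th1, 1.08-fold lower, and Pfkfb4 had 386 in CD103+ Th1, against 477 in Th1, 1.23-fold lower. Pdk1, for a kinase that shuts pyruvate dehydrogenase and so keeps pyruvate out of the mitochondria, had 7943 in CD103+ Th1, against 8386 in Th1, 1.06-fold lower. Its 4 probe sets disagreed, from -0.19 to 0.83 on the log2 scale. The highest of them had 1892 in CD103+ Th1, against 1061 in Th1, 1.78-fold higher, so no direction was settled for Pdk1.

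**Figure D2:**
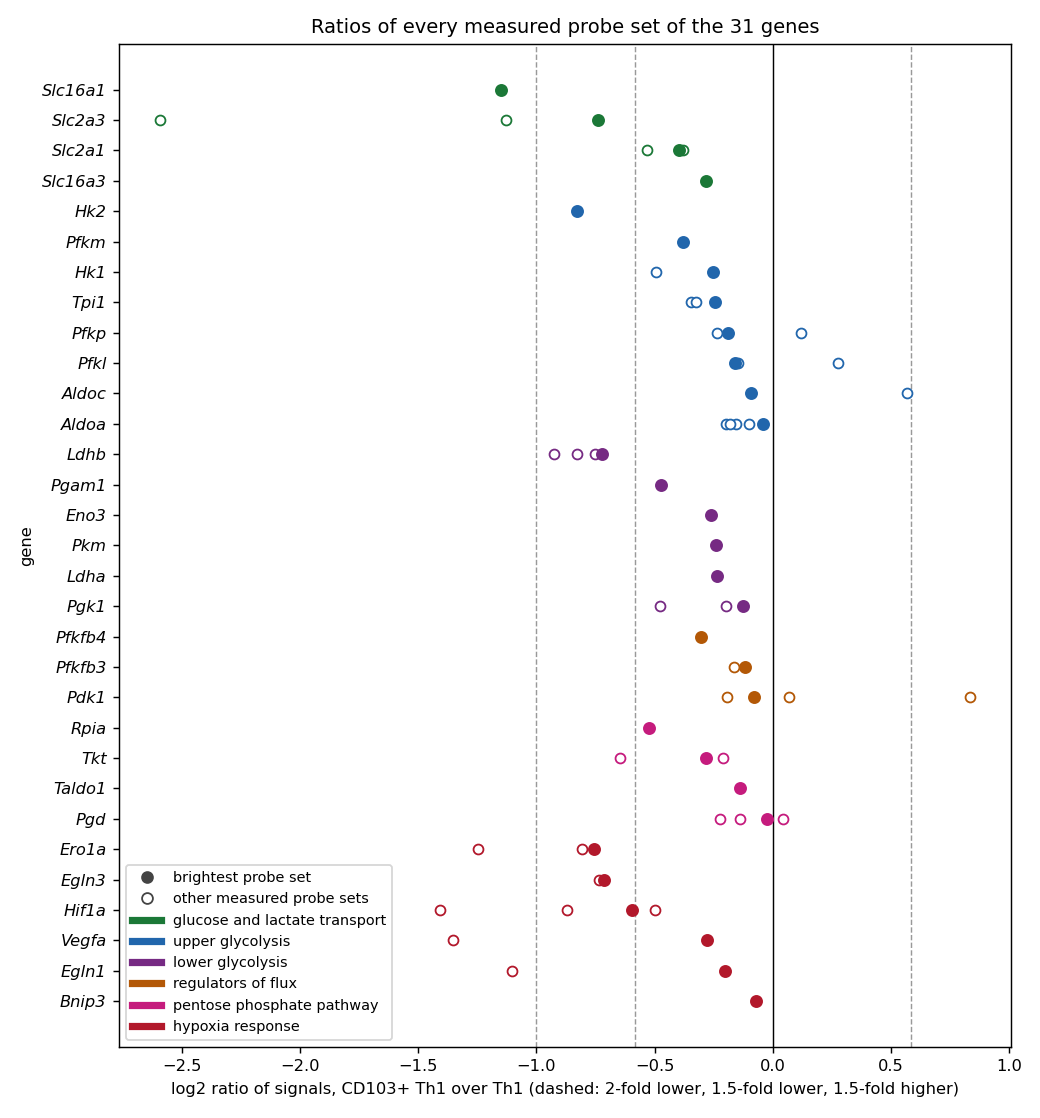
Log2 ratio of signals, CD103+ Th1 over Th1, for each of the 69 measured probe sets of the 31 genes, with the brightest probe set of a gene filled and the others open. Of these, 63 lie below 0 and 6 above, the latter from Pfkp, Pfkl, Aldoc, Pdk1 and Pgd. The share over all measured probe sets was not computed, and probe sets of a gene are not independent of each other.

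Of the pentose phosphate genes, 4 were measured, with a median log2 ratio of -0.21. Rpia, for ribose 5-phosphate isomerase, had 2457 in CD103+ Th1, against 3534 in Th1, 1.44-fold lower, just short of the 1.5-fold mark that Hif1a, at 1.51-fold, just passed. Tkt, for transketolase, which links the pathway back to glycolysis, had 16840 in CD103+ Th1, against 20468 in Th1, 1.22-fold lower, and a second probe set gave 1.56-fold lower, with 6143 in CD103+ Th1, against 9612 in Th1. Taldo1, for transaldolase, had 5882 in CD103+ Th1, against 6470.5 in Th1, 1.10-fold lower. Pgd, for the second NADPH-forming dehydrogenase of the oxidative arm, was even, with 3668 in CD103+ Th1, against 3727 in Th1. Its 4 probe sets lay between -0.22 and 0.04 on the log2 scale.

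The hypoxia response genes had a median log2 ratio of -0.44 over 6 genes, and 3 of these were at least 1.5-fold lower, where 13.4% of all measured genes were. Ero1a, for the oxidase that drives disulfide formation in the endoplasmic reticulum, had 9664 in CD103+ Th1, against 16334 in Th1, 1.69-fold lower, and its other 2 probe sets were 1.75-fold and 2.37-fold lower. Egln3, for the prolyl hydroxylase PHD3, itself induced by HIF, had 7912 in CD103+ Th1, against 12969 in Th1, 1.64-fold lower, and its second probe set was 1.67-fold lower. Hif1a, for the oxygen-regulated α subunit of HIF, had 9441 in CD103+ Th1, against 14255 in Th1, 1.51-fold lower. All 4 Hif1a probe sets were lower, the second brightest 1.41-fold, with 3324 in CD103+ Th1, against 4702 in Th1. These are transcript signals, and the HIF protein was not measured.

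The remaining hypoxia genes had smaller ratios on the brightest probe set. Egln1, for the prolyl hydroxylase PHD2, the main oxygen sensor, had 3437 in CD103+ Th1, against 3957 in Th1, 1.15-fold lower, but its other probe set was 2.15-fold lower, with 1584 in CD103+ Th1, against 3397 in Th1. Vegfa, for the angiogenic growth factor, had 1008 in CD103+ Th1, against 1223 in Th1, 1.21-fold lower, while a dim second probe set was 2.55-fold lower, with 119 in CD103+ Th1, against 305 in Th1. Bnip3, a mitophagy receptor gene strongly induced by hypoxia, was almost even, with 13367 in CD103+ Th1, against 14043 in Th1. The hypoxia genes therefore ran from almost even to 1.69-fold lower on their brightest probe sets.

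Agreement between probe sets was checked over all members. Of 71 probe sets assigned to the 31 genes, 69 were above the floor on at least 1 array, and 63 of these were lower in CD103+ Th1. Several measured probe sets were available for 19 genes, and in 14 of them all were lower. The same shares over all measured probe sets and genes were not computed. By brightest probe set, 52.6% of all measured genes lay below 0. Probe sets of a gene were read on the same 2 arrays and are not independent of each other. Where another rule for the probe set was used, the brightest probe set tended to give the smaller difference: the members' median was -0.31 with the mean of all measured probe sets and -0.35 with the second brightest. Under the second rule the 12 genes with 1 measured probe set keep their value. It gave 4 members at least 2-fold lower, against 4.45% of all measured genes: Slc2a3, Egln1, Vegfa and, by its only measured probe set, Slc16a1.

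Because many of these genes are among the brightest on the arrays, they were also read against genes of like brightness, a split added after their values were seen. In the highest band, with a mean signal of at least 128 times the floor, there were 14 members among 311 genes. All 14 were below 0, with a median log2 ratio of -0.24, against 66.6% below 0 and a median of -0.07 for the 311 genes, members included. In that band 4 of the 14 members were at least 1.5-fold lower, against 5.47% of all its genes. Between 16 and 64 times the floor, 2 of 8 members were at least 1.5-fold lower, against 11.6% of 2932 genes, and the medians were -0.23 for the members and -0.01 for all genes. Below 16 times the floor, 1 of 6 members was at least 1.5-fold lower, against 15.6% of 6872 genes. Between 64 and 128 times it was 0 of 3 members, against 11.8% of 526 genes. The medians in these bands were -0.29 for the members and -0.02 for all genes, and -0.14 for the members and -0.09 for all genes. With 3 to 14 members in a band, the counts are too small to show an excess or its absence in single bands. In the highest band 3.54% of genes were at least 1.5-fold higher.

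**Figure D3:**
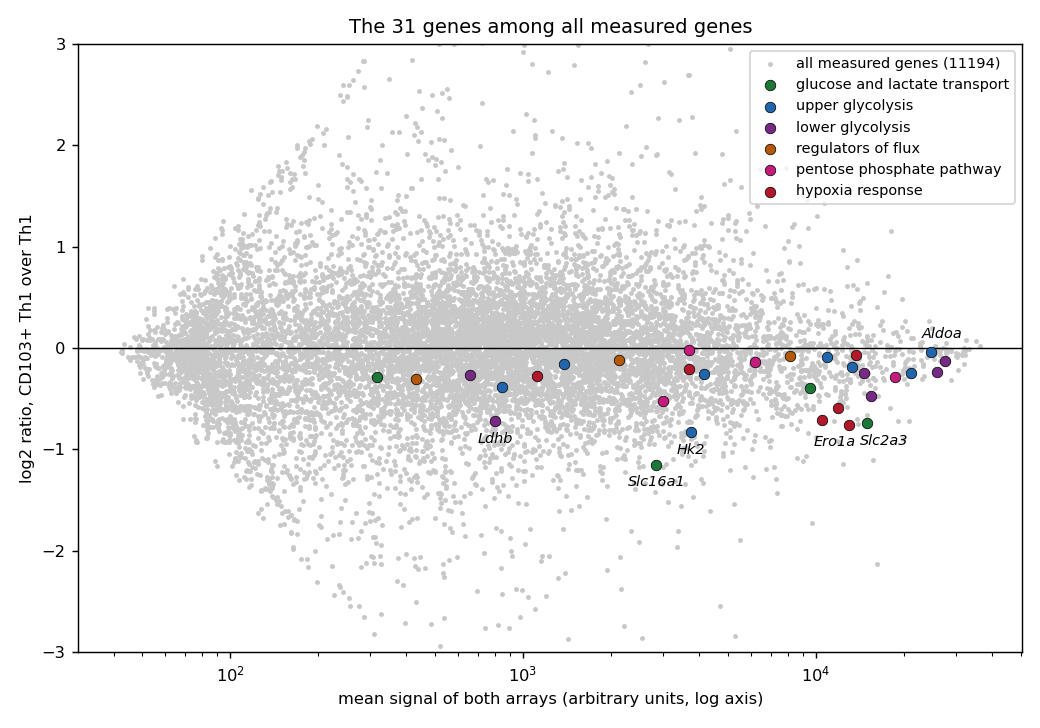
Log2 ratio, CD103+ Th1 over Th1, against the mean signal of both arrays (log axis) for all 11194 measured genes (grey) and the 31 members (coloured by role), with 53 genes beyond the vertical range not shown. On their brightest probe sets the members sit below 0, between -1.15 and -0.02; quantile normalization turned Aldoa, Pdk1 and Bnip3 slightly above 0, and other probe set rules turned Aldoc, Pdk1, Pfkl or Pgd above 0.

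Neighbouring steps of glucose metabolism were then described with lists of other genes. Enzymes and transporters of glycolysis that are not members, mostly isoforms of other tissues, had a median log2 ratio of -0.02 over 14 measured genes, 7 below 0, and this median changed sign with a lower floor. The glucose transporter gene Slc2a6 was higher, with 391 in CD103+ Th1 and 134 in Th1, 2.93-fold. The list of pyruvate dehydrogenase and pyruvate entry genes also held malic enzymes and Gpt2. Its median was -0.55 over 14 genes, 12 below 0 and 5 at least 1.5-fold lower, against 52.6% and 13.4% of all measured genes. With the mean of all probe sets its median was -0.32, and 3 genes were at least 1.5-fold lower, against 12.0% of all genes. Of the dehydrogenase genes, Pdha1, Pdhb and Pdhx were near even, at log2 ratios of -0.13, -0.08 and 0.13. Dld was 1.24-fold lower and Dlat 1.52-fold, with Dlat probe sets from -0.61 to 0.29. These dehydrogenase genes were named after their values were seen. Pdk3, for another pyruvate dehydrogenase kinase, had 1086 in CD103+ Th1, against 2129 in Th1, 1.96-fold lower. Gpt2, for the mitochondrial alanine aminotransferase, had 79.4, close to the floor, in CD103+ Th1, against 260 in Th1, 3.27-fold lower. The NADP-dependent malic enzyme gene Me1 had 100.5 in CD103+ Th1, against 205 in Th1, 2.04-fold lower.

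Genes of the tricarboxylic acid cycle had a median of -0.43 over 19 genes, 17 below 0, where 52.6% of all measured genes were. At least 1.5-fold lower were 2 of the 19, a share under the 13.4% of all measured genes. These were Idh3a, for a subunit of isocitrate dehydrogenase, with 2077 in CD103+ Th1, against 3761 in Th1, and Suclg2, for a subunit of succinyl-CoA ligase, with 1156 in CD103+ Th1, against 1930 in Th1. Probe sets of Idh3a ran from -0.86 to 0.72 on the log2 scale. The median of the cycle genes was -0.30 with the mean of all probe sets and -0.26 with the second brightest. The members had medians of -0.31 and -0.35 under these rules, so the order of the 2 lists depended on the probe set rule. Other genes of the pentose phosphate pathway and of sugar phosphates had a median of -0.32 over 9 genes, 6 below 0. Pgm1, for the phosphoglucomutase that links glucose 6-phosphate to glycogen, had 2494 in CD103+ Th1, against 4498 in Th1, 1.80-fold lower. Pgls, for the lactonase of the oxidative arm, had 2558 in CD103+ Th1, against 3626 in Th1, 1.42-fold lower.

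Other genes linked to HIF in a list assembled for this work had a median of -0.50 over 38 measured genes. Of these, 30 lay below 0, 16 were lower by 1.5-fold or more, 8 of them by 2-fold or more, and 2 were higher by 1.5-fold or more. Over all measured genes 52.6% lay below 0, 13.4% and 4.87% were lower by these amounts and 12.4% were 1.5-fold higher. Gbe1, for the glycogen branching enzyme, had 434 in CD103+ Th1, against 1865 in Th1, 4.30-fold lower. Hmox1, for haem oxygenase, had 110.1 in CD103+ Th1, against 407 in Th1, 3.70-fold lower. P4ha2, for a collagen prolyl hydroxylase subunit, had 772 in CD103+ Th1, against 1903 in Th1, 2.47-fold lower.

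Further members of that list at least 2-fold lower were Fam162a and the chemokine receptor gene Cxcr4. Fam162a, for a mitochondrial protein induced by hypoxia, had 7681 in CD103+ Th1, against 17016 in Th1. Cxcr4 had 1153 in CD103+ Th1, against 2600.1 in Th1. Anxa2, Car12 and Selenbp1 completed the 8, and Selenbp1 had the widest gap, with 574 in CD103+ Th1, against 3837 in Th1. Narf and Plod1 were the 2 at least 1.5-fold higher, the Plod1 value being a bound because its Th1 signal lay under the floor. Both were named after their values were seen, and several genes of the list, Selenbp1 among them, have regulators other than HIF. The link to HIF is weaker for Selenbp1, Errfi1, Rora and Rbpj than for the others. Selenbp1 and Errfi1 are nevertheless counted among the genes at least 1.5-fold lower.

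Genes for HIF subunits, its hydroxylases outside the members and its degradation showed no common direction, with a median of -0.06 over 15 genes that changed sign with other probe set rules. Siah1a, for a ubiquitin ligase that degrades prolyl hydroxylases, had 873 in CD103+ Th1, against 181 in Th1, 4.82-fold higher. Other Siah1a probe sets gave less, and all 3 spanned 0.34 to 2.27 on the log2 scale. Epas1, for HIF-2α, had 231 in CD103+ Th1, against 96.5 in Th1, a value near the floor, 2.39-fold higher. Hif3a, for the third α subunit, had 393 in CD103+ Th1, against 747 in Th1, 1.90-fold lower. Arnt, for the β subunit, had 831 in CD103+ Th1, against 688 in Th1, with its 3 probe sets spread between -0.22 and 0.27 on the log2 scale, and was named after its values were seen.

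**Figure D4:**
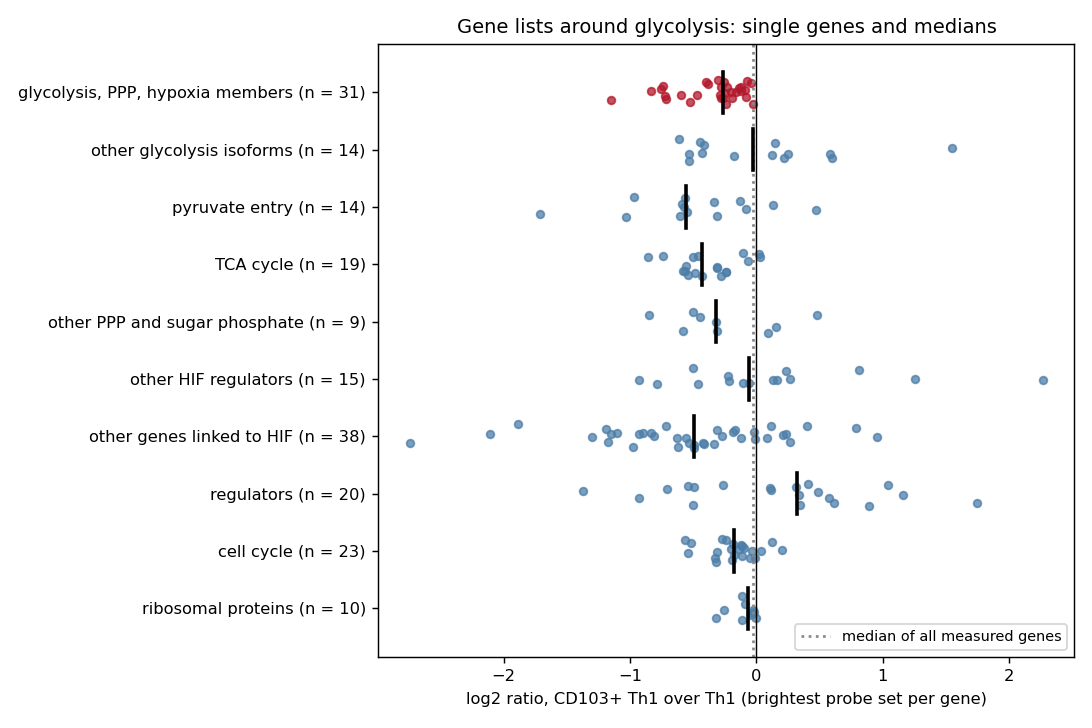
Log2 ratio, CD103+ Th1 over Th1, of each measured gene (points, brightest probe set) in the member list and in lists around it, with the median of each list (bar) and of all measured genes (dotted line). PPP stands for pentose phosphate pathway; medians run from -0.55 for pyruvate entry to 0.33 for regulators.

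Regulators of glycolytic genes had a median of 0.33 over 20 measured genes, with 7 below 0, 3 lower and 5 higher by 1.5-fold or more. The share that was lower is near the 13.4% of all measured genes, of which 12.4% were higher by as much. The list mixes drivers of glycolytic genes, such as Myc, with repressors, such as Bcl6, so its median has no direction for glycolysis. With the second brightest probe set the median was 0.13. Foxo1, for a transcription factor restrained by growth factor signalling, had 3306 in CD103+ Th1, against 1601 in Th1, 2.07-fold higher, with 3 probe sets between 0.96 and 1.18 on the log2 scale. Bach2, for a repressor of effector differentiation, had 3245 in CD103+ Th1, against 1448 in Th1, 2.24-fold higher, with probe sets from 0.25 to 1.16. Bcl6, for a repressor reported to restrain glycolytic genes in T helper cells, had 263 in CD103+ Th1, against 30.5 in Th1, which is under the floor, at least 3.36-fold higher.

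On the lower side, Mycn had 96.9, close to the floor, in CD103+ Th1, against 250.5 in Th1, 2.59-fold lower. Myc, for a factor that drives glycolytic genes in activated T cells, had 2130 in CD103+ Th1, against 3479 in Th1, 1.63-fold lower on its only probe set. Foxo3 had 1147 in CD103+ Th1, against 2178 in Th1, 1.90-fold lower, opposite to Foxo1. Myc and Foxo3 were named after their values were seen.

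The 23 measured cell cycle genes had a median log2 ratio of -0.17, 20 of them below 0 and 0 at least 1.5-fold lower, and the 10 ribosomal protein genes had a median of -0.06 with 9 below 0. Over all measured genes 52.6% lay below 0 and 13.4% were at least 1.5-fold lower. In the band of at least 128 times the floor 66.6% lay below 0. After quantile normalization 17 of 23 cell cycle genes, 6 of 10 ribosomal protein genes and 28 of 31 members lay below 0, against 54.1% of all measured genes. The 13 genes of the T cell list, Ptprc included, had a median of 0.21 with 2 below 0. Housekeeping genes had a median of 0.12 over 9 measured genes, 4 below 0. Of the 9, 1 was at least 2-fold lower and 0 were at least 1.5-fold higher. The lower gene was Gusb, with 567 in CD103+ Th1, against 1172 in Th1, 2.06-fold lower. Its 2 probe sets lay at -1.05 and -0.83 on the log2 scale. The part of proliferation in the members' differences was not tested.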

How the data were processed

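Gene expression was measured on 1 Affymetrix array per culture, CD103+ Th1 and Th1. The deposited values are 1 signal intensity per probe set and array, positive and linear in arbitrary units. The submitters' processing notes name the GCOS software. Its version, the scaling target and any filter are not given in the sources used here. No further scaling was applied, since the 2% trimmed means were 498 on both arrays.

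Of 45037 probe sets, 34945 carried 1 gene symbol, 932 several and 9160 none listed in the platform annotation. Symbols were updated by gene identifier through the GRCm38.p6 gene table, which matched 34741. Signals under the floor, the 50th percentile of both arrays (78.5), were set to it, and no ratio was formed where both arrays were under it. A ratio with 1 array under the floor is a bound. Each gene was represented by its brightest measured probe set, by mean log2 signal. Ratios are CD103+ Th1 over Th1, and genes at least 1.5-fold or 2-fold different were counted. The number of arrays limits the precision, and no test was made.

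All members are reported. From each other list, genes at least 2-fold different and up to 3 with the widest ratios could be named, cell markers could be named with their levels, and other genes are marked in the text as named after their values were seen. The members, lists and rules were chosen with earlier results of these data known. The alternatives were 3 scalings, 3 treatments of low signals and 3 probe set rules. The calculation was tested on simulated data. Analyses used Python 3.11.15, numpy 2.4.6, pandas 2.3.3 and scipy 1.17.1.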

Additional observations from a re-analysis of the deposited data

How the results depend on the processing

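The members' median log2 ratio kept its sign under all 9 alternatives, between -0.35 and -0.24, and the number at least 1.5-fold lower stayed between 6 and 9, while the share of all genes so called ran from 10.2% to 18.2%. With the floor at the 25th percentile, 7 of 31 members stand against that 18.2%. The number at least 2-fold lower, 1 as reported, was 2 with the mean of all probe sets, 4 with the second brightest and 2 with only probe sets whose names carry no suffix letter for shared transcripts, a rule that left 23 members. Of 270 single-gene values, 23 moved by more than 0.1 and 9 changed sign. Most of the other 238 could hardly move, since 2 scalings shift all genes alike, the members lie above the lower floor and 12 have 1 measured probe set. Sign changes were to 0.012 for Aldoa, 0.029 for Pdk1 and 0.0077 for Bnip3 with quantile normalization. They were to 0.24 for Aldoc and 0.16 for Pdk1 with the mean of all probe sets, 0.57 for Aldoc and 0.043 for Pgd with the second brightest, and 0.57 for Aldoc and 0.27 for Pfkl without suffix letters. The same alternatives were applied to the other lists after the data were seen. Of the list medians compared, 76 stayed within 0.1 of the main value, 17 moved by more and 6 changed sign. The median of glycolysis genes outside the members turned to 0.066 with the floor at the 25th percentile and 0.14 without suffix letters. That of HIF regulators turned to 0.014 with the floor at the 75th percentile, 0.051 with the mean of probe sets, 0.13 with the second brightest and 0.20 without suffix letters. The causes were not tested. No paired analysis was possible because each group holds 1 array.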

Other observations

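Serine and one-carbon synthesis, which branches from the glycolytic intermediate 3-phosphoglycerate, was lower in CD103+ Th1 with a median log2 ratio of -0.80 over 11 measured genes, 10 below 0 and 7 at least 1.5-fold lower, where 52.6% and 13.4% of all measured genes were. Phgdh, for the enzyme that opens the branch, had 3572 in CD103+ Th1, against 8657 in Th1, 2.42-fold lower on its brightest probe set, with 4 probe sets from -1.28 to -0.40 on the log2 scale. The folate enzyme gene Mthfd1 had 637 in CD103+ Th1, against 1383 in Th1, 2.17-fold lower, and Shmt1, for a serine hydroxymethyltransferase, had 299 in CD103+ Th1, against 607 in Th1, 2.03-fold lower. Over the alternatives the median of this list ran from -0.87 to -0.56. Tyms, the 1 gene of the list above 0 and named after its values were seen, is also in the cell cycle list.

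Genes of amino acid transport and of the mTORC1 pathway had a median of -0.11 over 18 genes. Of these, 11 lay below 0, against 52.6% of all measured genes. At least 1.5-fold lower were 2, a share under the 13.4% of all measured genes. These 2 were Asns and Slc7a5. Asns, for asparagine synthetase, had 453 in CD103+ Th1, against 2180 in Th1. Slc7a5, for the large neutral amino acid transporter LAT1, had 1126 in CD103+ Th1, against 2521 in Th1, 2.24-fold lower. Tsc1, for an inhibitor of mTORC1, had 611 in CD103+ Th1, against 418 in Th1, a log2 ratio of 0.55. With 1 array per culture none of these differences has a replicate check.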
